A study of Mus musculus with 27 samples.

Results

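Interferon-stimulated genes are the genes that cells switch on when an interferon binds its receptor. The group described here holds 49 such mouse genes, chosen by symbol and by presence in the count table of sorted microglia: a gene was kept when it had counts in 3 or more of the 27 libraries. All 49 were found among the 56691 genes of the table, and 48 of them passed the filter on low counts that left 17573 genes for testing. The member that did not pass was Oas3, one of the 2-5A synthetases, whose highest level was 0.819 CPM (count scaled to library size). Microglia, the resident macrophages of the brain, had been sorted from the tissue around the hematoma of wild-type mice kept under SPF, ABX or GF conditions. SPF mice received no microbiota treatment, ABX mice received an antibiotic cocktail, and GF mice were kept germ free. Intracerebral hemorrhage (ICH) was induced with collagenase, and sham mice received PBS instead. Each condition had ICH libraries at day 3 and day 7 and sham libraries at day 7, with 3 libraries in each of the 9 groups, so a comparison of day 3 with sham also differs in day. The design asks how the gut microbiota changes the microglial response to hemorrhage. The sources used here do not state the markers used for sorting, the age of the mice, or whether the 3 libraries of a group came from separate animals, so the p-values measure the spread between these libraries.

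As background, type I interferons bind the Ifnar1 and Ifnar2 receptor chains, and the kinases Jak1 and Tyk2 then phosphorylate factors such as Stat2. Stat2 works with Irf9 in a complex that binds the interferon-stimulated response element (ISRE) in the promoters of target genes, while interferon gamma works mainly through GAS elements. In the brain, microglia both make and answer interferons, and an interferon-responsive microglial state has been described in injury, infection and aging.

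Promoter sequence gives a first look at what these genes share, since the membership did not use it. RefSeq promoter windows (GRCm38.p6, 250 bases before to 50 after the transcript start) matched 38 of the 49 members by symbol. The ISRE core searched for was GAAANNGAAA on either strand, with N for any base and overlapping matches counted, and its reverse complement is TTTCNNTTTC. It was found in 21 of the 38 members with a window (55.3%), against 1079 of 27025 genes (3.99%). Counted by window, it was in 22 of 45 member windows (48.9%) and in 3.44% of all windows of this length. The GAS letters TTCNNNGAA were found in 11 of the 38 members (28.9%), against 9.55% of genes. A match to these letters is a description of the window and not evidence of binding. Of the 8 members with at least 2 cores, the 7 whose cores lie before the transcript start are printed here, because they show how the element repeats and at what distance from the start it sits. Capitals mark the ISRE cores, each window runs 5′ to 3′ on the gene's own strand and ends before the annotated transcript, and coordinates are GRCm38.p6.

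Isg15 (ubiquitin-like modifier), chr4:156200819-156201018, minus strand: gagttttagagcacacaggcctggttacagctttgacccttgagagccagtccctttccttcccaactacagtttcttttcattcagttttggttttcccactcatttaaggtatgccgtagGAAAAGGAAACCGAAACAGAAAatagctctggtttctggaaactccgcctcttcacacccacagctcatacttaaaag
Ifit1 (binds foreign RNA ends), chr19:34640689-34640870, plus strand: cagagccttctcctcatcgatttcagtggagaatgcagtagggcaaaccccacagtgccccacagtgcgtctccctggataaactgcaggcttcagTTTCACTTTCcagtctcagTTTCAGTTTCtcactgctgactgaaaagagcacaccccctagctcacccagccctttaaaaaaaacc
Ifit3 (Ifit family), chr19:34583329-34583528, plus strand: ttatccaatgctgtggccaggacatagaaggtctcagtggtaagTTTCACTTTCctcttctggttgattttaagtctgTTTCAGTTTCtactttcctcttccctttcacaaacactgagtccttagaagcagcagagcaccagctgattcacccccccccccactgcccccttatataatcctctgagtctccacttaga
Ifit3b (Ifit family), chr19:34607757-34607956, plus strand: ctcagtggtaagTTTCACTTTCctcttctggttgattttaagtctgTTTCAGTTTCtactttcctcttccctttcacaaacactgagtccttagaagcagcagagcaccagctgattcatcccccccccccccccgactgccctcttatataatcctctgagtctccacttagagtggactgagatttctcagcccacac
Gbp3 (interferon-induced GTPase), chr3:142559844-142560025, plus strand: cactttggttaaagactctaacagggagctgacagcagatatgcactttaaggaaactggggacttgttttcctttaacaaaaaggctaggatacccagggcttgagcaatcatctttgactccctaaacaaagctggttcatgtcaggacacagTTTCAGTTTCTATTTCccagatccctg
Oas1a (2-5A synthetase), chr5:120907526-120907725, minus strand: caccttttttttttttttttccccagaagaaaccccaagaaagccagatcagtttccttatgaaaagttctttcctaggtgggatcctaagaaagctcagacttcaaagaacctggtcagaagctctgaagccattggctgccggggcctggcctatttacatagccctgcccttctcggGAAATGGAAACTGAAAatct
Bst2 (tetherin), chr8:71537473-71537672, minus strand: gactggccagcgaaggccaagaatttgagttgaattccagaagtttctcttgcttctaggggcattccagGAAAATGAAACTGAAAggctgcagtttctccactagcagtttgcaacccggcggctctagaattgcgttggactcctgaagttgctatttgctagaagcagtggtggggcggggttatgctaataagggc

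Isg15 carried 3 overlapping cores that begin 78, 72 and 66 bases before its start, the most of any member. In Gbp3, Oas1a and Bst2 2 cores also overlap, whereas in Ifit1, Ifit3 and Ifit3b they are separate. The neighbouring genes Ifit3 and Ifit3b hold the same pair of cores in nearly the same surroundings. Members with and without a core are set side by side as a description. The counts are of members whose ICH libraries all lay above all shams. In SPF mice at day 7 these were 15 of 20 tested with a core and 12 of 17 without, against 5.94% of all genes. At day 3 they were 10 and 3, against 9.18%. In ABX mice the counts with and without a core were 8 and 6 at day 3 (9.74% of all genes) and 8 and 5 at day 7 (7.8%). In GF mice they were 11 and 9 at day 3 (10.8%) and 3 and 2 at day 7 (5.34%).

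The libraries held 41664864 to 79090595 counts each (median 55514639), but the number of genes detected ranged from 9185 to 18408. Under 12000 genes were detected in 7 libraries: GF sham replicates 1 and 2, ABX ICH day 7 replicates 1 and 2, and all 3 of GF ICH day 7. Microglial markers were high in every group, with summed group means of 20990 to 66280 CPM over 7 genes, although Csf1r averaged 131 CPM in GF ICH day 7 and 1268 CPM or more elsewhere. Neutrophil markers summed to 817 to 3917 CPM in GF ICH day 7 libraries, and the other group means were 109 to 459 CPM. Monocyte markers summed to 309.5 to 1548 CPM in the same libraries and to 10.7 to 809 CPM in ABX ICH day 7. GF sham replicate 1 lay within both GF ICH day 7 ranges, at 895.3 CPM of neutrophil markers and 614.2 CPM of monocyte markers. B cell markers were at 0.168 to 1.33 CPM in GF ICH day 7. The share of these differences in the results that follow was not tested. In bulk RNA of this kind, fewer expressing cells and less RNA per cell cannot be told apart.

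Low gene numbers were found at both high and low depth. GF ICH day 7 replicates 2 and 3 and ABX ICH day 7 replicate 2 held more counts than the median library. GF ICH day 7 replicate 1, ABX ICH day 7 replicate 1 and GF sham replicates 1 and 2 held fewer. GF sham replicate 2 held the fewest of all, at 41664864. GF ICH day 7 libraries had counts for 35 to 39 of the 49 members and SPF ICH day 7 libraries for 47 to 48. The other 4 libraries under 12000 genes had counts for 41 to 43 members, within the 39 to 44 of SPF and ABX sham libraries. Between replicates, the median SD of a member's log2 level was 2.35 in GF sham, 2.99 in ABX ICH day 7 and 3.25 in GF ICH day 7, and 0.497 to 1.47 in the other 6 groups. A member that was abundant in 1 library of such a group was often near 0 in the next.

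**Figure D1:**
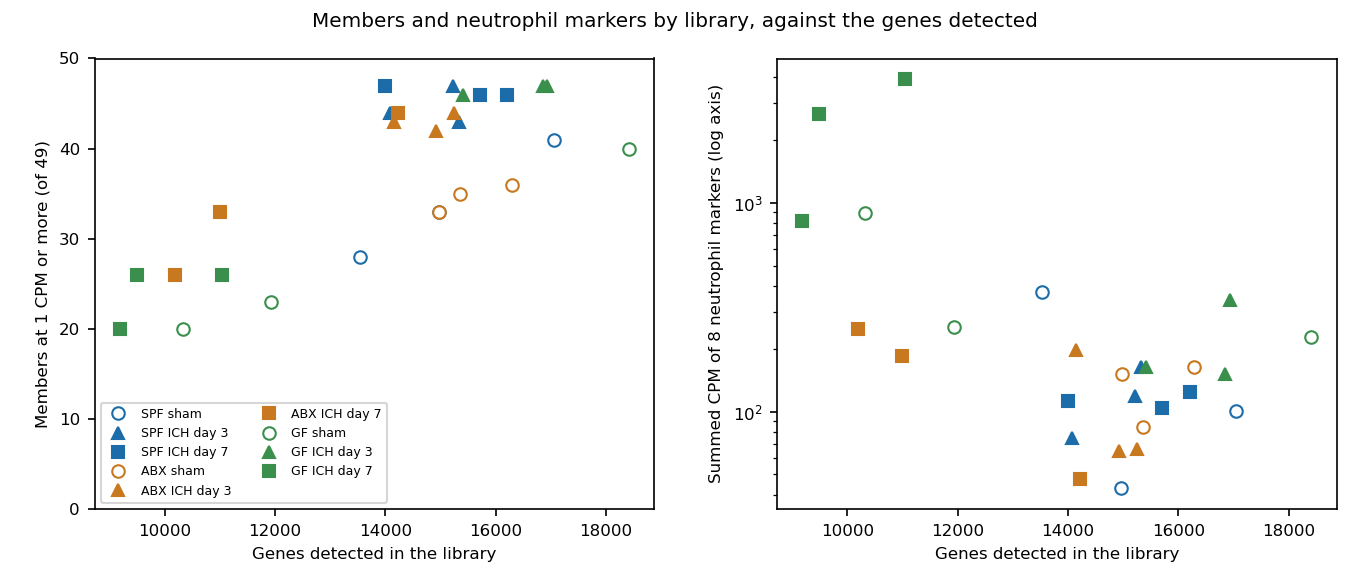
Left, members at 1 CPM or more (of 49) against the genes detected in each library; right, the summed CPM of 8 neutrophil markers (log axis) against the same. Colours and shapes give the 9 groups, with open circles for sham. The 7 libraries under 12000 genes lie at the left, and the GF ICH day 7 libraries reach 817 to 3917 CPM of neutrophil markers.

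Per kilobase of exon, the most abundant members over the 27 libraries were Ifitm3 (452 mean CPM per kb), Ly6e (351), Ifi27l2a (260) and Ifitm2 (256), followed by Bst2 (129) and Slfn2 (128). In SPF sham the order was different. Ly6e stood first at 277 CPM per kb, followed by Bst2 (86.6) and Ifi35 (86.3), and Ifitm3 was at 27.03. At day 7 in SPF mice Ifitm3 was first at 758 CPM per kb, Ly6e second at 457 and Ifi27l2a at 318, while Cxcl9 was not detected and Oas3 was at 0.0386.

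**Figure D2:**
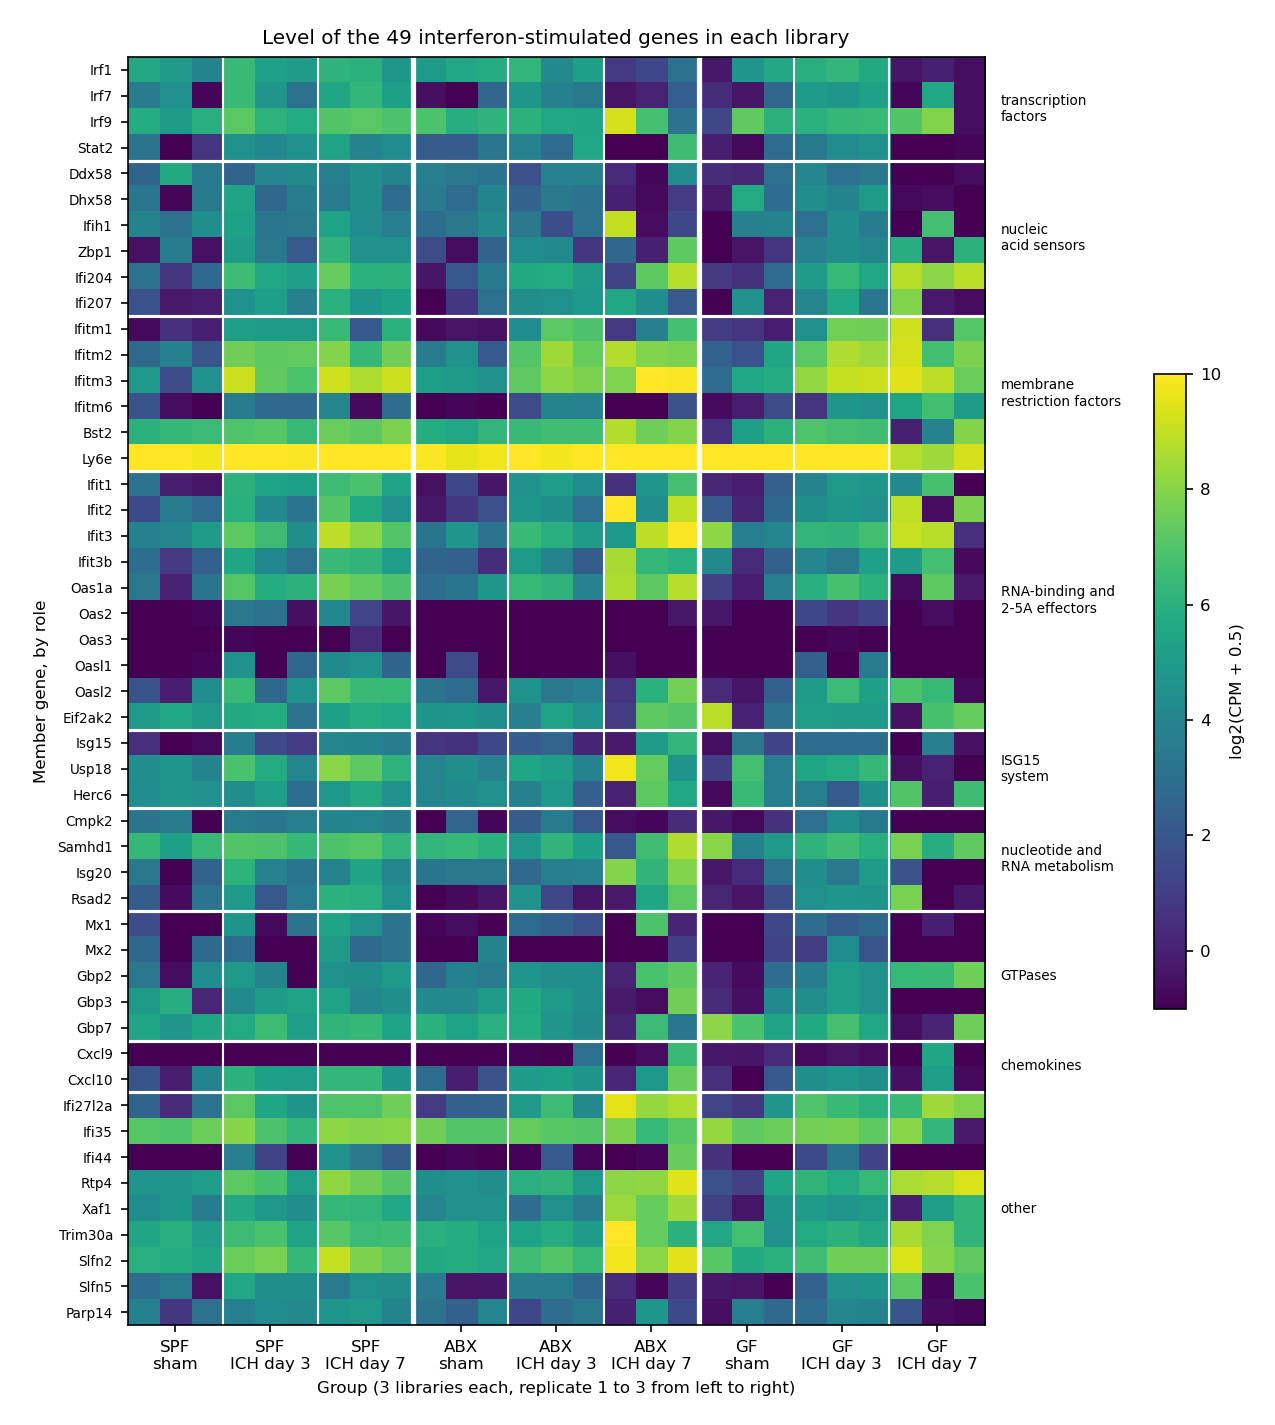
log2(CPM + 0.5) of the 49 members (rows, by role) in the 27 libraries (columns, by group); colours stop at -1 and 10. Ly6e is above the colour limit in most libraries, and the columns of GF ICH day 7 and ABX ICH day 7 alternate between high and near-absent members.

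Many of these genes stood higher after hemorrhage than in sham, above all in SPF mice at day 7. In SPF mice all 3 ICH libraries lay above all 3 shams for 16 of 48 tested members at day 3, against 9.18% of all genes tested, and for 36 of 48 at day 7, against 5.94%. In ABX mice the counts were 18 at day 3 (9.74% of all genes) and 17 at day 7 (7.8%). In GF mice they were 26 at day 3 (10.8%) and 8 at day 7 (5.34%). Marker lists of other cells moved with the rise in SPF mice. The 6 border-associated macrophage markers summed to 0.757 to 8.31 CPM in SPF sham, 48.2 to 153 at day 3 and 52.6 to 138 at day 7. Of these, Mrc1, Pf4 and Ms4a7 lay wholly above sham at both times, while Cd163 and Lyve1 were at 0 in all SPF day 3 libraries. The 5 dendritic cell markers summed to 0.474 to 18.3 CPM in SPF sham and 21.6 to 162 at day 7, and the microglial markers to 41130 to 50120 in sham, 21200 to 26110 at day 3 and 26990 to 39120 at day 7. Their part in the members' rise was not tested. A gene can pass the low-count filter only because its ICH libraries are high, so the counts were also taken over the 43 members that would pass on sham libraries alone, at 0.18 CPM in 3 libraries. Among those, 15 and 32 were higher in SPF mice at day 3 and day 7, 17 and 17 in ABX mice, and 23 and 8 in GF mice. The 6 left out were Oas2, Oas3, Oasl1, Mx1, Cxcl9 and Ifi44. Without the libraries under 12000 genes, an alternative chosen after seeing the data, the count for ABX mice at day 7 rested on 1 ICH library and came to 35, and that for GF mice at day 3 rested on 1 sham library and came to 39. Fewer libraries overlap less by construction. Leaving out 1 library moved the count to 30 for SPF mice at day 3 (ICH replicate 3), to 29 for ABX mice at day 7 (ICH replicate 1) and to 13 for GF mice at day 7 (ICH replicate 2 or 3).

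**Figure D3:**
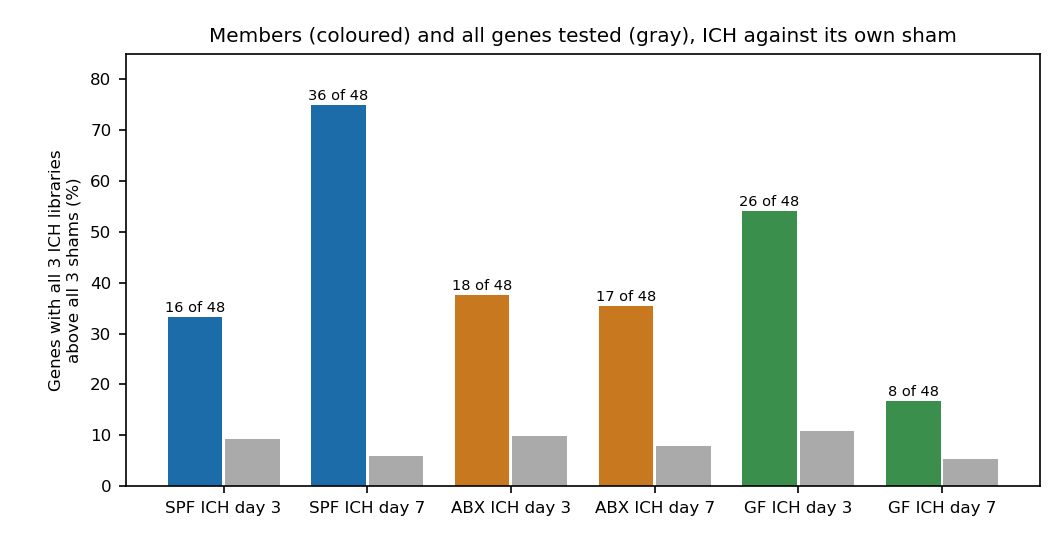
Percentage of members (coloured bars, with counts of 48) and of all genes tested (gray bars) whose 3 ICH libraries all lay above the 3 shams of the same condition, at day 3 and day 7. SPF ICH day 7 has 36 of 48 members there and 5.94% of all genes, and GF ICH day 7 has 8 of 48 and 5.34%.

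The median log2 fold change of the 48 members against sham was 1.77 in SPF mice at day 3 and 2.64 at day 7, where the medians of all genes were -0.07 and -0.03. In ABX mice it was 1.29 at day 3 and 3.77 at day 7, against 0 and -0.79 for all genes, and in GF mice 2.43 and 1.78, against 0.23 and -2.10. The day 7 median of ABX mice is 3.65 when 2 members whose sham libraries are all at 0 are set at the bound that 3 counts per library give. A positive fold change was estimated for 44 and 45 of the 48 in SPF mice, 33 and 37 in ABX mice, and 39 and 30 in GF mice, at day 3 and day 7. Among all genes tested the shares were 44.7% and 46.5%, 47.9% and 40.1%, and 54.7% and 31.3%. Each condition has its own sham group, so the 3 responses are separate measurements, but day 3 and day 7 of a condition share their sham.

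At the level of single genes, few members passed edgeR's quasi-likelihood test across all genes at an adjusted p of 0.05. At day 3 none of the 48 did in any condition, and 12 in each had an unadjusted p under 0.05. In SPF mice the called share of all genes was 0.102%, and 7.26% of genes had an unadjusted p under 0.05. DESeq2 called 6 members there (5.89% of genes) and limma voom 3 (3.01%), all higher. In ABX mice edgeR called 0.125% of genes and 8.27% had an unadjusted p under 0.05. DESeq2 called 9 members, 7 of them higher and Mx2 and Oasl1 lower (6.7% of genes), and limma voom 9, all higher (4.94%). In GF mice edgeR called 0.00569% of genes, and 5.29% had an unadjusted p under 0.05. DESeq2 called 9 members, all higher (4.61%), and limma voom 0 (0%).

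At day 7 edgeR called 1 member in SPF mice, Ifitm3, against 0.0797% of all genes. In ABX mice it called 7 members, all higher, against 0.945% of genes, and in GF mice 15, of which 9 were higher and 6 lower, against 14.4%. In that last comparison 2536 of the 17573 genes tested passed. The 7 of ABX mice were Ifi27l2a, Slfn2, Ifitm3, Ifit2, Rtp4, Ifitm2 and Ifitm1, and all but Ifitm1 and Ifit2 also had GF libraries wholly above sham. None of these 7 calls held when any 1 of the 3 ABX sham libraries was left out, and the count then fell to 0. Of the 15 calls in GF mice, 11 held without each of the 27 libraries in turn. Those of Ddx58, Dhx58, Ifit2 and Slfn2 did not, with adjusted p-values of up to 0.18, 0.0552, 0.0673 and 0.197. Of the 15, limma voom called only Ifi204 and Rtp4. DESeq2 called 11 members in SPF mice (4.38% of all genes with an adjusted p), 25 in ABX mice (31.3%) and 24 in GF mice (43.6%). limma voom called 4 (0.842%), 12 (3.31%) and 2 (6.81%).

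Members higher in every library of all 3 conditions were few. At day 3 they were 7 of 48, namely Ifi204, Ifitm1, Ifitm2, Ifitm3, Ifit1, Cxcl10 and Ifi27l2a, and 1.7% of all genes met the same condition. At day 7 they were 5, namely Ifitm2, Ifitm3, Ifi27l2a, Rtp4 and Slfn2, against 0.467% of genes. Ifitm2, Ifitm3 and Ifi27l2a were in both sets.

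Among the membrane restriction factors, Ifitm3 was the one member called at day 7 in all 3 conditions. Ifitm3 is a small membrane protein that blocks the fusion of enveloped viruses in endosomes. In SPF libraries it was at 29.7, 2.41 and 22.9 CPM in sham, 559, 158 and 119 at day 3 and 585, 401 and 557 at day 7. In ABX libraries it was at 36.2, 29.4 and 24.8 CPM in sham, 159, 284 and 227 at day 3 and 235, 1000 and 986 at day 7. In GF libraries it was at 6.89, 46.4 and 55.6 CPM in sham, 293, 519.9 and 556 at day 3 and 724, 472 and 183 at day 7. Every ICH library exceeded every sham library of its condition at both times. At day 7 Ifitm3 rose in SPF mice (log2 fold change 4.81, SE 0.91, edgeR adjusted p = 0.0283), in ABX mice (log2 fold change 4.62, SE 0.90, edgeR adjusted p = 0.00919) and in GF mice (log2 fold change 3.66, SE 0.86, edgeR adjusted p = 0.00649). The SPF call was lost without replicate 1 or 3 of ICH day 7 or without any 1 of the 3 shams, with adjusted p-values of up to 0.26, and with a replicate block (0.057). The ABX call was lost without any 1 sham library, with adjusted p-values of up to 0.11.

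Ifitm2, a close relative in the same cluster on chromosome 7, was at 12.1, 24.6 and 3.93 CPM in ABX sham and 424, 240.3 and 221 at day 7. In GF libraries it was at 5.08, 2.9 and 43.4 CPM in sham and 623, 100.3 and 230.4 at day 7. No ICH library overlapped a sham. It rose in ABX mice (log2 fold change 4.45, SE 0.99, edgeR adjusted p = 0.028) and in GF mice (log2 fold change 4.21, SE 0.98, edgeR adjusted p = 0.00629). The ABX call was lost without ICH day 7 replicate 1 (0.0828) or any 1 sham (up to 0.207), with the replicate block (0.0514) and with no filter on low counts (0.055). Of its 75-base exonic windows 42% also occur in other genes, so its counts may include reads of those genes. Ifitm1 was called in the same comparisons, at a log2 fold change of 7.71 in ABX mice and 8.02 in GF mice. In GF mice its libraries overlapped, at 1.37, 1.07 and 0.382 CPM in sham and 597, 0.883 and 135 at day 7. Its ABX call was lost when any of 20 libraries was left out, with adjusted p-values of up to 0.241.

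Bst2, or tetherin, holds budding virus particles at the cell surface. It was at 65.2, 79.1 and 90.3 CPM in SPF sham and 183, 152 and 226 at day 7, and at 55.6, 48.5 and 74.5 in ABX sham and 419, 187 and 248 at day 7. The libraries did not overlap in either condition, and neither difference was called (log2 fold change 1.26 and 2.26, edgeR adjusted p = 1 and 0.246). In GF ICH day 7 Bst2 ranged over 0.484, 14.3 and 249 CPM.

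Ly6e, a GPI-anchored surface protein that limits the entry of some viruses, went the other way in GF mice. It was at 4669, 1727 and 1021 CPM in GF sham, 1782, 1343 and 1266 at day 3 and 438, 334 and 627 at day 7. In SPF mice it was at 1142, 1129 and 875 CPM in sham and 1431, 1775 and 1984 at day 7. The GF day 7 libraries were the 3 lowest of the 27, and the SPF day 7 libraries lay above all SPF shams. Ly6e fell in GF mice against sham (log2 fold change -2.41, SE 0.41, edgeR adjusted p = 0.00064) and against day 3 (log2 fold change -1.65, SE 0.40, edgeR adjusted p = 0.00876), and it was lower than in SPF mice at day 7 (log2 fold change -1.89, SE 0.40, edgeR adjusted p = 0.00601). These calls held without each library in turn. They were all lost when the fit carried an offset for GC content, with adjusted p-values of 0.629, 0.265 and 0.887, and the difference from day 3 then turned to 0.56. The exons of Ly6e hold 55.4% GC, and the trend of level on GC was -2.13 (log2) in GF ICH day 7 and 0.264 in SPF ICH day 7.

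**Figure D4:**
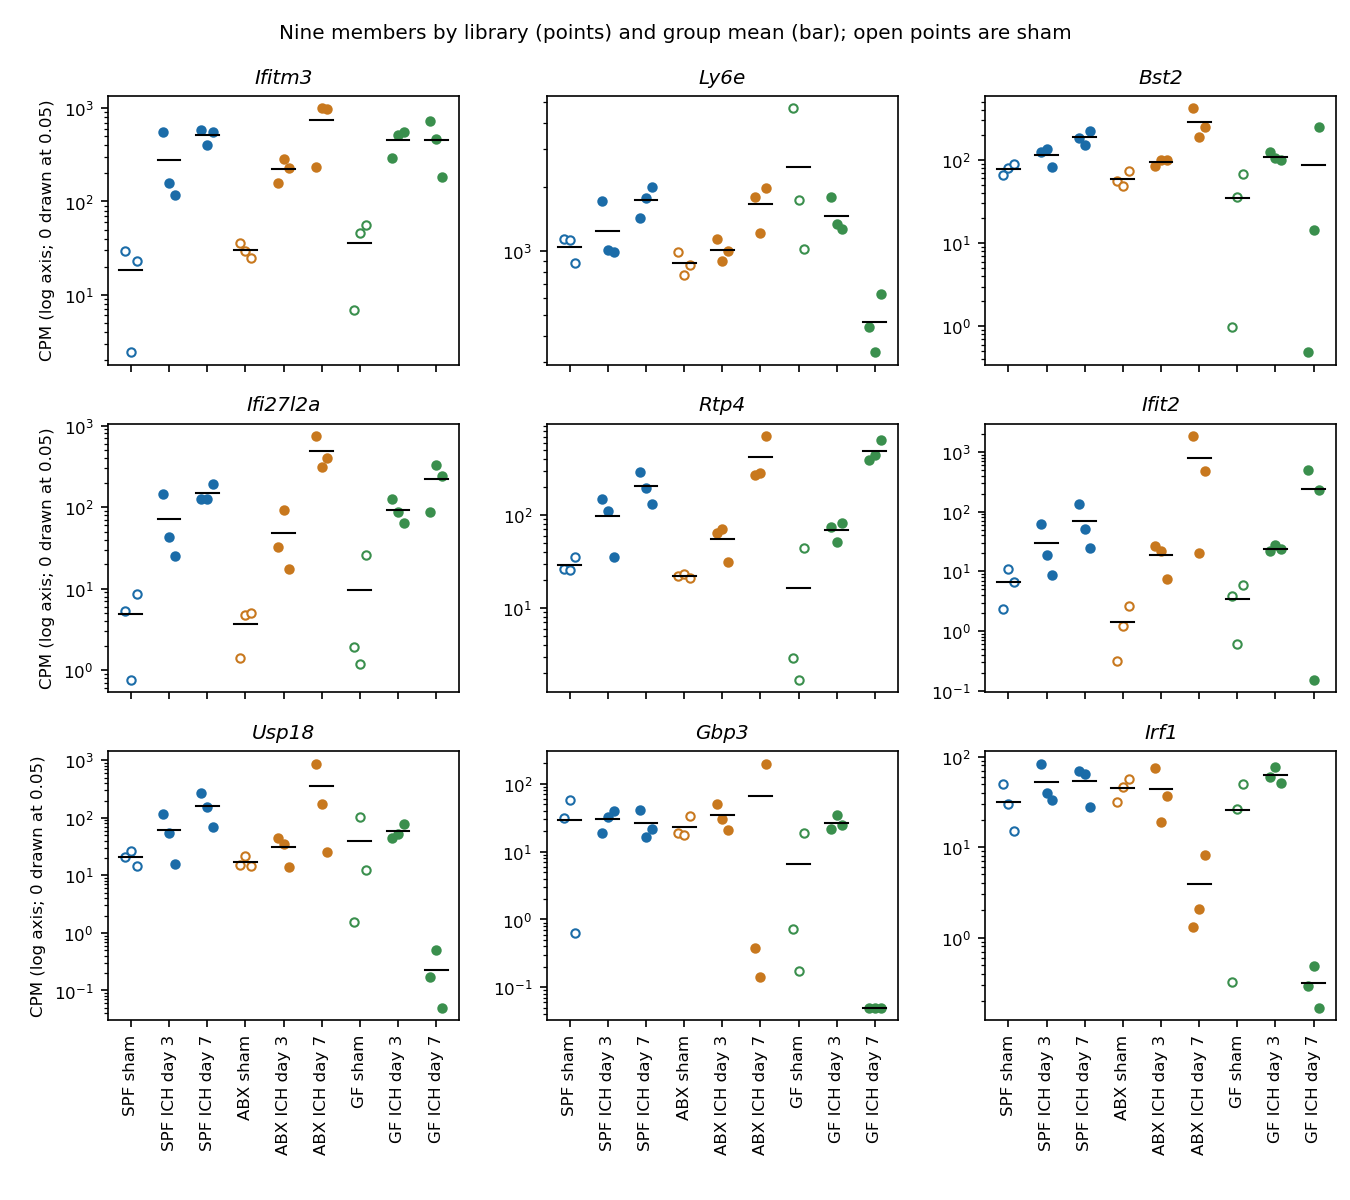
CPM (log axis) of 9 members in each library (points, open for sham) with the group mean (bar); a level of 0 is drawn at 0.05. Ifitm3, Ifi27l2a and Rtp4 lie above sham in all 3 conditions at day 7, whereas Usp18 and Gbp3 sit at or near 0 in GF ICH day 7, and Ly6e reaches its lowest 3 levels there.

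Among the transcription factors, Irf7, which amplifies interferon production and is itself induced by interferon, was at 11.9, 22.4 and 0.0745 CPM in SPF sham, 84.4, 26.5 and 7.94 at day 3 and 44.5, 78.4 and 37.7 at day 7. Only the day 7 libraries lay wholly above sham, and the difference was not called (log2 fold change 2.22, edgeR adjusted p = 1). Stat2, which works with Irf9, was at 8.81, 0 and 1.07 CPM in SPF sham and 40.2, 14.7 and 19.4 at day 7. In GF mice it was at 10.5, 19.3 and 23.5 CPM at day 3 and 0, 0 and 0.0631 at day 7. The GF day 7 libraries lay below all others of GF mice, and Stat2 was called lower than at day 3 (log2 fold change -9.60, SE 3.08, edgeR adjusted p = 0.0377) and than SPF mice at day 7 (log2 fold change -10.08, SE 3.14, edgeR adjusted p = 0.0362). The first call was lost without any 1 of 7 libraries and the second without any 1 of 6, with adjusted p-values of up to 0.11 and 0.108. Both were lost with the GC offset (0.0696 and 0.0574). Irf9 had the highest mean level of the 4 and overlapped sham in both GF comparisons.

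Irf1, a factor induced mainly by interferon gamma that drives many GTPase genes, was at 0.322, 26.1 and 50.02 CPM in GF sham, 59.3, 76.8 and 50.5 at day 3 and 0.295, 0.489 and 0.168 at day 7. In SPF mice it was at 50.04, 30.1 and 14.9 CPM in sham and 70.1, 64.3 and 27.7 at day 7, with overlapping libraries. The GF day 7 libraries lay far below day 3 and overlapped sham through its replicate 1. Irf1 fell in GF mice against sham (log2 fold change -6.32, SE 1.39, edgeR adjusted p = 0.00414) and against day 3 (log2 fold change -7.60, SE 1.47, edgeR adjusted p = 0.00232), and it was lower than in SPF mice at day 7 (log2 fold change -7.40, SE 1.46, edgeR adjusted p = 0.00372). These calls held without each library in turn. In ABX mice at day 7 Irf1 was also below all shams, at 1.33, 2.06 and 8.27 CPM against 31.3, 45.9 and 56.1, and was not called (log2 fold change -3.51, edgeR adjusted p = 0.159).

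Of the 6 nucleic acid sensors, edgeR called Ifi204 higher and Ddx58 and Dhx58 lower in GF mice at day 7 against sham, and the other 3 overlapped sham. Ifi204, a cytosolic DNA-binding protein of the PYHIN family, was at 1.29, 1 and 6.72 CPM in sham, 33.2, 82.8 and 47.3 at day 3 and 453, 272 and 471 at day 7. In SPF mice it was at 8.07, 1.11 and 6.18 CPM in sham and 171, 63.8 and 65.9 at day 7. Its GF libraries stood in the order sham, day 3, day 7 without overlap, and it rose against sham at day 7 (log2 fold change 7.05, SE 1.501, edgeR adjusted p = 0.00344). In the SPF comparison, which also had no overlap, it was not called (log2 fold change 4.29, edgeR adjusted p = 0.897). Of its 75-base windows 20.7% occur in other genes of the family.

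Ddx58 and Dhx58 were low in the same libraries. Ddx58, which encodes the RNA sensor RIG-I, was at 16, 7.49 and 9.97 CPM in GF mice at day 3 and 0, 0 and 0.147 at day 7. Dhx58, its regulator LGP2, was at 20.4, 15.1 and 31.4 CPM at day 3 and 0.0842, 0.15 and 0 at day 7. Both lay below every GF sham and day 3 library. Dhx58 fell against sham (log2 fold change -7.95, SE 2.09, edgeR adjusted p = 0.0131) and day 3 (log2 fold change -8.11, SE 2.10, edgeR adjusted p = 0.0127), and Ddx58 did so too, at log2 fold changes of -5.94 and -7.77. Both were lower than in SPF mice at day 7 (log2 fold change -7.34 and -8.32, edgeR adjusted p = 0.0213 and 0.017). The calls against sham were lost for Ddx58 without any 1 of 21 libraries and for Dhx58 without GF ICH day 7 replicate 3 or GF sham replicate 2, with adjusted p-values of up to 0.18 and 0.0552. Those against SPF mice were lost for Ddx58 without GF ICH day 7 replicate 1 (0.0606) and for Dhx58 without GF ICH day 7 replicate 1 (0.0699) or 3 (0.0748), or with the GC offset (0.0582). Against day 3 the Ddx58 call was lost without GF ICH day 7 replicate 1 (0.0652) or 2 (0.0534). Dhx58 shares exonic sequence with an antisense gene, and the strand setting of the counts is not given in the sources used here.

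The remaining sensors showed how unevenly single libraries contributed. Ifih1, the RNA sensor MDA5, was at 510.2, 0.144 and 2.1 CPM in ABX ICH day 7 and 0, 105 and 0 in GF ICH day 7, so that 1 library held nearly all of each group's signal. Its sign in the ABX comparison (log2 fold change 3.87) turned to -3.38 without replicate 1. Zbp1, a sensor of Z-form nucleic acids, was at 0.209, 11.9 and 0.209 CPM in SPF sham and 70.7, 24.3 and 22.6 at day 7, with no overlap and no call (log2 fold change 3.26, edgeR adjusted p = 0.973).

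Of the RNA-binding and 2-5A effectors, 8 of 9 tested members lay wholly above sham in SPF mice at day 7, and edgeR called none of them. Ifit3, an Ifit family protein, was at 13.9, 15.7 and 33.6 CPM in SPF sham, 151, 93 and 21.5 at day 3 and 479, 279 and 133 at day 7 (log2 fold change 3.82 at day 7, edgeR adjusted p = 0.897). It had the highest mean level of its group, and 41.1% of its 75-base windows also occur in Ifit3b. In GF mice it was at 281, 12.6 and 16.1 CPM in sham, where replicate 1 stood above all 3 day 3 libraries at 74.1, 69.8 and 102. Oasl2, a 2-5A synthetase-like protein, was at 3.12, 0.405 and 19.8 CPM in SPF sham and 151, 88.3 and 82.3 at day 7, with no overlap (log2 fold change 3.78, edgeR adjusted p = 0.897).

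Ifit2, which binds AU-rich RNA, was the one gene of these effectors that was called. In ABX mice it was at 0.315, 1.23 and 2.67 CPM in sham and 1855, 20.4 and 487 at day 7, and in GF mice at 3.87, 0.61 and 5.92 in sham and 495, 0.15 and 229 at day 7. The ABX libraries did not overlap, whereas GF ICH day 7 replicate 2 lay below all GF shams. Ifit2 rose in both (ABX: log2 fold change 9.13, SE 1.95, edgeR adjusted p = 0.0206; GF: log2 fold change 6.12, SE 1.71, edgeR adjusted p = 0.0188). The ABX call was lost without ICH day 7 replicate 1 (0.0831) or any 1 sham, with adjusted p-values of up to 0.147. The GF call was lost without ICH day 7 replicate 1 (0.0567), sham replicate 1 (0.0513) or sham replicate 2 (0.0673), and with the GC offset (0.0683).

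The ISG15 system attaches the small protein Isg15 to other proteins and removes it again. Isg15 itself was at 0.906, 0 and 0.0894 CPM in SPF sham, 11.8, 2.19 and 1.47 at day 3 and 16.2, 15.2 and 11.8 at day 7, without overlap at either time (log2 fold change 5.42 at day 7, edgeR adjusted p = 0.897). In GF mice at day 7 it was at 0, 12.6 and 0.21 CPM, and the sign of its difference from sham (log2 fold change 0.13) turned under 4 other settings. Usp18, the protease that removes Isg15 and also dampens the interferon receptor, was at 20.7, 26.7 and 14.5 CPM in SPF sham and 265, 155 and 69.6 at day 7. In GF mice it was at 1.57, 104 and 12.6 CPM in sham, 45.3, 51.9 and 79.5 at day 3 and 0.168, 0.507 and 0 at day 7. The GF day 7 libraries were the 3 lowest of all 27, while SPF day 7 libraries lay above every SPF sham. Usp18 fell in GF mice against sham (log2 fold change -7.42, SE 1.62, edgeR adjusted p = 0.00411) and day 3 (log2 fold change -8.01, SE 1.66, edgeR adjusted p = 0.00361) and was lower than in SPF mice at day 7 (log2 fold change -9.48, SE 1.76, edgeR adjusted p = 0.00279), and these calls held without each library in turn.

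Of the enzymes of nucleotide and RNA metabolism, Cmpk2, a mitochondrial nucleotide kinase, was not detected in any GF ICH day 7 library. It was at 7.71, 19.5 and 10.5 CPM in GF mice at day 3 and 15.1, 15.4 and 11.9 in SPF mice at day 7. With 3 counts per library in place of 0, it was at least 206-fold lower than GF day 3 (edgeR adjusted p = 0.0113) and at least 232-fold lower than SPF day 7 (edgeR adjusted p = 0.0133). The second call was lost without GF ICH day 7 replicate 3 (0.0522). Its neighbour Rsad2, the antiviral enzyme viperin, was at 4.25, 0.123 and 9.02 CPM in SPF sham and 64, 59.7 and 24.2 at day 7, and at 0, 0.102 and 0.279 in ABX sham and 0.379, 45.3 and 145 at day 7. Neither pair overlapped, and neither was called (log2 fold change 3.46 and 8.95, edgeR adjusted p = 1 and 0.14). In ABX mice the lowest ICH library (replicate 1) held 8 counts and the highest sham (replicate 3) 16, so that order rests on the library scaling. Samhd1, which degrades nucleotides, had the highest mean level of the 4 and overlapped sham in all 6 comparisons.

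The GTPases include the guanylate-binding proteins, which attack the membranes of intracellular pathogens. Gbp3 was not detected in any GF ICH day 7 library and was at 0.725, 0.174 and 18.5 CPM in GF sham, 21.2, 34.8 and 24.5 at GF day 3 and 40.4, 16.4 and 21.7 at SPF day 7. With 3 counts per library in place of 0, it was at least 107-fold lower than GF sham, at least 441-fold lower than GF day 3 and at least 430-fold lower than SPF day 7 (edgeR adjusted p = 0.00978, 0.00572 and 0.0079). These calls held without each library in turn. Its neighbour Gbp2 was high in the same libraries, at 81.2, 84.4 and 187 CPM against 0.564, 0.131 and 7.39 in sham, and was not called (log2 fold change 5.44, edgeR adjusted p = 0.0677). Gbp7 had the highest mean level of the 5 and overlapped sham in all 6 comparisons.

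Cxcl10, a chemokine that draws activated T cells, was at 3.1, 0.422 and 14.9 CPM in SPF sham, 66.8, 37.1 and 35.9 at day 3 and 78.2, 78.3 and 25 at day 7. At day 3 it lay wholly above sham in all 3 conditions, with log2 fold changes of 2.92 in SPF, 3.22 in ABX and 3.97 in GF mice, none of them called (edgeR adjusted p = 0.786, 0.667 and 0.797). Cxcl9, which binds the same receptor, was at 0 in all 9 SPF libraries and reached 0, 0.144 and 85.8 CPM in ABX ICH day 7 and 0, 43.9 and 0 in GF ICH day 7, in each case through 1 library.

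Among the other members, Ifi27l2a, a small protein of the ISG12 family, was at 5.28, 0.756 and 8.7 CPM in SPF sham and 125, 126 and 191 at day 7. In ABX mice it was at 1.41, 4.71 and 5.01 CPM in sham and 747, 309 and 399 at day 7. In GF mice it was at 1.93, 1.2 and 26 CPM in sham and 86.5, 333 and 241 at day 7. The groups did not overlap in any condition, and Ifi27l2a rose in ABX mice (log2 fold change 7.03, SE 1.28, edgeR adjusted p = 0.00591) and in GF mice (log2 fold change 4.50, SE 1.14, edgeR adjusted p = 0.0106). In SPF mice it was not called (log2 fold change 4.91, edgeR adjusted p = 0.185).

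Rtp4, a chaperone that helps receptors reach the cell surface, was at 2.9, 1.68 and 44.4 CPM in GF sham, 73.6, 51.9 and 81.4 at day 3 and 392, 437 and 647 at day 7. In ABX mice it was at 22, 23 and 21.2 CPM in sham and 272, 286 and 710.4 at day 7. Its GF libraries too stood in the order sham, day 3, day 7 without overlap. Rtp4 rose at day 7 against sham in GF mice (log2 fold change 4.91, SE 0.95, edgeR adjusted p = 0.00185) and in ABX mice (log2 fold change 4.26, SE 0.92, edgeR adjusted p = 0.022), and against day 3 in GF mice (log2 fold change 2.83, SE 0.87, edgeR adjusted p = 0.0302), where it was the only member called higher. The last call was lost without any 1 GF day 3 library or GF ICH day 7 replicate 3, with adjusted p-values of up to 0.0983, and with no filter on low counts (0.0535).

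The Schlafen genes regulate lymphocyte quiescence and antiviral defence. Slfn2 was at 51.1, 54.8 and 46.8 CPM in ABX sham and 894, 274 and 726 at day 7, and at 140.4, 51.5 and 63.8 in GF sham and 681, 254 and 158 at day 7. It rose without overlap in ABX mice (log2 fold change 3.63, SE 0.67, edgeR adjusted p = 0.00606) and in GF mice (log2 fold change 2.10, SE 0.63, edgeR adjusted p = 0.0267). The GF call was lost without ICH day 7 replicate 1 (0.197), sham replicate 2 (0.102) or sham replicate 3 (0.0873), and with DESeq2 (0.0852), its size factors (0.136) or no filter on low counts (0.0722). Slfn5 was called higher in GF mice at day 7 (log2 fold change 8.88, SE 2.40, edgeR adjusted p = 0.0157), with 149, 0.0752 and 113 CPM against 0.322, 0.24 and 0 in sham, so that replicate 2 lay among the shams. Ifi44 was at 0 in all SPF shams and at 23, 10.2 and 4.25 CPM at SPF day 7, which is at least 269-fold higher with 3 counts per library in place of 0, and was not called (edgeR adjusted p = 0.897).

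Between day 3 and day 7 edgeR called members only in GF mice. In SPF mice edgeR called 0 of 48 between the times, as it did for 0% of genes, and 0 had an unadjusted p under 0.05, against 4.09%. DESeq2 and limma voom also called 0 (4.09% and 0.501% of genes). In ABX mice edgeR called 0 (0.728% of genes), and 13 had an unadjusted p under 0.05 (20.8%). DESeq2 called 16 there, 12 of them higher at day 7 (30.8%), and limma voom 4, all higher (1.99%). In GF mice edgeR called Rtp4 higher and 8 members lower, namely Cmpk2, Ddx58, Dhx58, Gbp3, Irf1, Ly6e, Stat2 and Usp18, against 15.3% of genes in either direction. The median log2 fold change there was -2.49 over all genes and 0.19 over the 48 members. DESeq2 called 17 members there (43.1%) and limma voom 17 (28.5%). With the GC offset edgeR called 7 (10.5% of genes), without Ly6e and Stat2. All 3 day 7 libraries lay below all 3 day 3 libraries for 14 members, against 32.6% of genes, so the share among members was no larger than that among all genes. Against sham, 7 members of GF mice and 2 of ABX mice lay wholly lower at day 7, where 11.6% and 22.4% of genes did.

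Between conditions, sham and day 3 libraries gave no edgeR call for any member. ABX sham against SPF sham had 0 calls (0% of genes) and 2 members with an unadjusted p under 0.05 (4.05%), while DESeq2 called only Ifi44 (3.55%) and limma voom 0 (0.615%). GF sham against SPF sham had 0 (0.00569%) and 2 members with an unadjusted p under 0.05 (6.22%), while DESeq2 called 3 (5.61%) and limma voom 0 (0%). At day 3, ABX against SPF mice had 0 calls (0%) and 4 members with an unadjusted p under 0.05 (4.89%). DESeq2 called Mx2, Oas2 and Oasl1 lower in ABX mice (4.7%) and limma voom Oas2 (0.216%). Oas2, a 2-5A synthetase, was at 0 in all ABX day 3 libraries and at 9.65, 8.2 and 0.183 CPM in SPF day 3, so that its level in ABX mice was at least 151-fold lower with 3 counts per library in place of 0. GF against SPF mice at day 3 had 0 calls (0%) and 0 members with an unadjusted p under 0.05 (3.46%), and DESeq2 and limma voom called 0 as well (3.52% and 1.48%).

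At day 7 ABX and SPF mice again had 0 edgeR calls (0.0854% of genes) with 9 members at an unadjusted p under 0.05 (19.4%). DESeq2 called 2 members higher and 5 lower in ABX mice (28.6%), and limma voom 0 (1.47%). GF mice differed from SPF mice in 8 members, all lower, against 12.9% of genes in either direction: Cmpk2, Ddx58, Dhx58, Gbp3, Irf1, Ly6e, Stat2 and Usp18. For 15 members all GF libraries lay below all SPF libraries, against 24.4% of genes. DESeq2 called 15 members in this comparison (39.7%) and limma voom 20 (19.2%). Of the 8 calls, those of Irf1, Ly6e, Usp18 and Gbp3 held without each library in turn.

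The interaction asks whether the difference between ICH and sham itself differs from that of SPF mice. For ABX mice at day 3 edgeR called 0 members (0% of genes) and 2 had an unadjusted p under 0.05 (5.58%), while DESeq2 called 3 (4.13%) and limma voom 0 (0.125%). For GF mice at day 3 edgeR called 0 (0%) and 0 had an unadjusted p under 0.05 (5.68%), while DESeq2 called 2 (3.12%) and limma voom 0 (0%). For ABX mice at day 7 edgeR called 0 (0%) and 4 had an unadjusted p under 0.05 (12.7%), while DESeq2 called 5 (12.2%) and limma voom 0 (0.0683%). For GF mice at day 7 edgeR called 6, all more negative than in SPF mice, against 7.04% of genes: Dhx58, Gbp3, Ifi44, Irf1, Ly6e and Usp18. The median log2 difference there was -1.81 over all genes and -0.90 over the members tested. Usp18 had log2 fold change -10.41, SE 2.07, edgeR adjusted p = 0.00549 and Ly6e log2 fold change -3.13, SE 0.56, edgeR adjusted p = 0.00271, and both calls held without each library in turn, although the Ly6e call was lost with the GC offset (0.395), as were those of Dhx58 (0.0989) and Irf1 (0.0561). The other 4 were lost without 2 to 12 of the libraries, and limma voom called 1 of the 6. DESeq2 called 13 members (31% of genes) and limma voom 1 (5.31%). The count fell to 3 without SPF ICH day 7 replicate 2 or 3 or SPF sham replicate 1, and to 2 without SPF sham replicate 2 or 3.

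Genes of the interferon pathway that are not members were read from a list of ligands, receptors, kinases, factors, inhibitors and upstream sensors. Of 32 such genes, 24 were tested. The 7 ligand genes listed, among them Ifnb1, Ifna4 and Ifng, had 0 counts in all 27 libraries, where 3 counts correspond to 0.0337 to 0.142 CPM. No pathway gene was called for ICH against sham in SPF or ABX mice, or at day 3 in GF mice. In GF mice at day 7, 7 were called lower, namely Irf5, Irf8, Socs3, Ticam1, Mavs, Ikbke and Cgas. In that comparison 14.4% of all genes were called in either direction, and the median log2 fold change of all genes was -2.10. Irf8, a factor that maintains microglia, was at 3036, 795 and 924 CPM in GF sham and 144, 67.5 and 105 at day 7 (log2 fold change -3.91, SE 0.60, edgeR adjusted p = 0.000251). Irf5, which acts below Toll-like receptors, was at 958, 409.8 and 169 CPM in GF sham and 0, 3.27 and 0.252 at day 7 (log2 fold change -8.77, SE 1.61, edgeR adjusted p = 0.00124). Between day 3 and day 7 in GF mice, Tlr4, the receptor for lipopolysaccharide, was called higher (log2 fold change 3.30, SE 1.05, edgeR adjusted p = 0.0364) and Tyk2, Irf5, Irf8, Socs3, Mavs and Cgas lower. The same 6 were also called lower at day 7 when GF mice were set against SPF mice. Of all genes, 15.3% were called in either direction between day 3 and day 7 in GF mice. Between GF and SPF mice at day 7 it was 12.9%.

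Many members are neighbours in the genome. Of the 49, 26 lie in 10 groups with gaps of at most 200 kb. The 4 Ifit genes span 99.3 kb of chromosome 19. Of these, 2, 3 and 2 lay wholly above sham at day 3 in SPF, ABX and GF mice, and 4, 3 and 0 at day 7. Of the 75-base windows of Ifit3, 41.1% also occur in Ifit3b, so these 2 are not fully separate. The 4 Ifitm genes span 63.1 kb of chromosome 7, and 4, 4 and 3 of them lay wholly above sham at day 3 in SPF, ABX and GF mice, and 3, 3 and 3 at day 7. Of all genes, 9.18%, 9.74% and 10.8% did so at day 3, and 5.94%, 7.8% and 5.34% at day 7. In the Gbp group on chromosome 3, by contrast, Gbp2 and Gbp3 stood at opposite ends in GF mice at day 7.

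The GF ICH day 7 libraries, which carry most of the calls, also differ in base composition. The 9 members called higher there against sham had a median exonic GC content of 49.5% and the 6 called lower 51.9%, and the median of all 48 was 48.2%. The neutrophil marker S100a8 averaged 1021 CPM in these libraries. The part of these differences in the 15 calls was not tested.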

How the data were processed

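The authors deposited 1 table of whole-number read counts per gene for the 27 libraries, per the file headers. Libraries were made from sorted cells with a low-input full-length cDNA kit and sequenced as pairs of 150 bases, per the labels' protocols. The build mm10 and the tools HISAT2 2.0.4, cutadapt 1.9, edgeR and StringTie 1.3.4d are listed in the submitters' processing notes, without order; the annotation, strand setting and counting rule are not given in the sources used here. Gene symbols came from GENCODE M21, which matched 52073 of 56691 identifiers, and the others hold 1.27% of counts. Genes were filtered by filterByExpr, scaled by TMM (factors 0.476 to 1.31) and tested in 1 quasi-likelihood fit over the 9 groups (edgeR 4.0.16, R 4.3.3), with Benjamini-Hochberg adjustment over all 17573 genes at 0.05, 19 comparisons and a common biological coefficient of variation of 1.54. A prior count of 2 was used for log2 levels and for the GC offset, while the edgeR fold changes used the fit's own default. CPM values are TMM-scaled. A fold against a group at 0 uses 3 counts per library. Alternatives were DESeq2 1.42.0, limma voom (limma 3.58.1), DESeq2 size factors, no low-count filter, a GC offset, a replicate block, leaving out each library, and leaving out those under 12000 genes. The edgeR step was checked on simulated data that varied less between libraries than these data and changed in SPF ICH day 7 alone. That check does not speak for the spread found here. Members, roles, pathway list and markers were chosen with earlier results of these data known. Named genes are 13 chosen members, every member called, and in each role the member with the highest mean CPM and the one with the smallest p against sham. Replicate numbers do not pair the libraries: over 36 pairs of groups, the correlation of deviations of same-numbered libraries ran from -0.13 to 0.105, and no pair of groups had all 3 over 0.1. One pathway gene is not reported here.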

Additional observations from a re-analysis of the deposited data

Results flagged for a closer look

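For 6 members the response to hemorrhage at day 7 differed between GF and SPF mice by edgeR's interaction test, each time more negative in GF mice. The same test called 7.04% of all genes in either direction. The median log2 difference was -1.81 over all genes and -0.90 over the members tested. A negative difference was thus the direction of the typical gene too, and the members as a set were less negative. On the log2 scale the differences were -7.09 for Irf1, -8.94 for Dhx58, -3.13 for Ly6e, -10.41 for Usp18, -11.39 for Gbp3 and -19.73 for Ifi44. The values of Gbp3 and Ifi44 depend on the default prior count of edgeR's fit, since all GF ICH day 7 libraries are at 0. For Ifi44 all SPF shams are at 0 too, and the GF shams held 24, 0 and 0 counts. The GF side of its difference thus rests on GF sham replicate 1, without which the call was lost. With the GC offset the edgeR adjusted p was 0.395 for Ly6e, 0.0989 for Dhx58 and 0.0561 for Irf1. The calls of Irf1, Dhx58, Gbp3 and Ifi44 were also lost when single libraries were left out. Neutrophil markers summed to 817 to 3917 CPM in these GF libraries, and their part in the differences was not tested.

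Ly6e and Usp18 lay on opposite sides of sham in ABX and GF mice at day 7. All 3 ABX ICH libraries lay above all ABX shams and all 3 GF ICH libraries below all GF shams, and the responses differed by 3.33 (Ly6e) and 11.82 (Usp18) on the log2 scale, ABX minus GF. This difference was not tested. The ABX order rests on the library scaling. ABX ICH day 7 replicate 1 held 37670 counts of Ly6e, and the ABX shams 78314, 45473 and 49372. Replicate 3 held 977 counts of Usp18, and the shams 1219, 1255 and 818. The TMM factors were 0.476 and 0.644 in those ICH libraries and 1.16, 1.15 and 1.29 in the shams. Neither gene was called against sham in ABX mice, and the Ly6e call in GF mice was lost with the GC offset (edgeR adjusted p = 0.629).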

How the results depend on the processing

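Counts of called members changed with the test and with the libraries used. The shares of all genes that DESeq2 and limma voom called in each comparison are given with these counts above. DESeq2 called 6 members for SPF mice at day 3 and 11 at day 7, 9 and 25 for ABX mice, and 9 and 24 for GF mice, against sham. For day 7 against day 3 it called 16 in ABX and 17 in GF mice. Against SPF mice it called 1 (ABX) and 3 (GF) in sham, 3 (ABX) at day 3, and 7 (ABX) and 15 (GF) at day 7. For the interactions it called 3 (ABX) and 2 (GF) at day 3 and 5 (ABX) and 13 (GF) at day 7. limma voom called 3 and 4 in SPF mice, 9 and 12 in ABX mice and 2 in GF mice at day 7 against sham, 4 (ABX) and 17 (GF) for day 7 against day 3, 1 (ABX) at day 3 and 20 (GF) at day 7 against SPF mice, and 1 for the GF interaction at day 7. With the GC offset the count was 1 for ABX day 7 against day 3 (0.353% of all genes). It was 5 for GF against SPF mice at day 7 (9.74%) and 3 for the GF interaction at day 7 (3.98%). Without the low-count filter the counts were 1 for ABX mice at day 3 (0.0769% of all genes) and 4 at day 7 (0.205%). With the replicate block, SPF mice at day 7 had 0 (0.0626% of all genes) and the GF interaction at day 7 had 3 (4.38%). GF mice at day 7 had 15 as before (11.1%), and ABX mice at day 7 had 5 (0.598%). Without the libraries under 12000 genes the counts were 5 and 9 in SPF mice and 2 and 21 in ABX mice against sham, 8 for ABX day 7 against day 3, 3 for ABX against SPF mice at day 7 and 1 for that interaction. Of all genes, that setting called 0.317% in SPF and 7.79% in ABX mice at day 7 against sham, and 7.98% for ABX day 7 against day 3. Members with all libraries higher then numbered 35 in ABX mice at day 7, and those with all lower 6. In that setting ABX ICH day 7 and GF sham keep 1 library each, assumed to vary like the other groups. The counts given for ABX mice at day 7 in that setting, of calls and of members without overlap, thus rest on 1 ICH library. They are printed only to show the dependence on the setting, and no conclusion is drawn from them. Comparisons with GF ICH day 7 have no value, since it keeps none. The cause of these changes was not tested.

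Leaving out 1 library at a time, calls against sham ranged from 0 to 1 and 0 to 3 in SPF mice, 0 to 1 and 0 to 10 in ABX mice, and 0 to 3 and 12 to 17 in GF mice, at day 3 and day 7. They ranged from 0 to 0 (SPF), 0 to 3 (ABX) and 7 to 11 (GF) for day 7 against day 3, 0 to 1 for GF against SPF sham and for ABX against SPF mice at day 7, 7 to 11 for GF against SPF mice at day 7, and 2 to 7 for the GF interaction at day 7. The other comparisons stayed at 0. Shares of all genes called in these fits are not given here, so the ranges describe only how stable the counts were. Without GF sham replicate 3 the count was 3 in SPF mice at day 7 and in GF mice at day 3, and 1 in SPF mice at day 3 and for GF against SPF sham. Without GF sham replicate 1 it was 1 in SPF mice at day 3 and for ABX against SPF mice at day 7, and 3 for ABX day 7 against day 3. It was 0 in SPF mice at day 7 without SPF ICH day 7 replicate 1 or 3 or any SPF sham, and 0 in ABX mice at day 7 without any ABX sham. It was 1 in ABX mice at day 3 without ABX ICH day 7 replicate 1 or GF ICH day 7 replicate 2, and 1 or 2 for ABX day 7 against day 3 without ABX ICH day 7 replicate 2 or 3, any GF ICH day 7 library or GF sham replicate 3. Members with all libraries higher ranged from 17 to 30 and 36 to 41 in SPF mice, 20 to 25 and 17 to 29 in ABX mice, and 26 to 32 and 9 to 13 in GF mice. Members with all lower ranged from 2 to 5 in ABX mice (4 and 5 without ICH day 7 replicate 2 and 3) and 7 to 11 in GF mice (11 without ICH day 7 replicate 2) at day 7 against sham, 14 to 20 for GF day 7 against day 3 and 15 to 22 for GF against SPF mice at day 7.

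Signs turned for members that were not called in those comparisons, with 1 exception. Under limma voom the log2 fold change was -2.39 for Gbp2 in SPF mice at day 3, 3.43 for Irf7, -3.61 for Stat2 and -2.61 for Ifih1 in ABX mice at day 7, 2.12 for Ifit3 in GF mice at day 3, and -0.43 for Irf7, -4.68 for Ifih1, -1.89 for Bst2 and -3.25 for Isg15 in GF mice at day 7. Isg15 there was -0.38 with DESeq2 and with its size factors, and -0.080 with the replicate block. The block also turned Ifit3 in GF mice at day 3 to 0.23. Without the libraries under 12000 genes, Irf7 was 0.89 and Ifih1 -2.76 in ABX mice at day 7, and Ifih1 was -0.19 and Ifit3 2.34 in GF mice at day 3. The GC offset turned Irf7 in ABX mice at day 7 to 0.47 and, as the exception, Ly6e in GF mice between day 3 and day 7 to 0.56. Leaving out 1 library at a time, the sign turned within the range for Ifih1 (-0.65 to 0.70) and Gbp2 (-0.44 to 1.56) in SPF mice at day 3, Irf7 (-2.28 to 4.24), Stat2 (-11.46 to 3.03) and Ifih1 (-3.38 to 4.45) in ABX mice at day 7, and Ifih1 (-0.091 to 1.01) and Ifit3 (-0.86 to 2.51) in GF mice at day 3. In GF mice at day 7 it did so for Irf7 (-4.28 to 4.77), Ifih1 (-12.12 to 2.46), Bst2 (-2.23 to 2.25), Isg15 (-5.19 to 2.03), Rsad2 (-2.88 to 7.40) and Cxcl10 (-3.44 to 4.70). DESeq2 size factors shifted the median of all genes from -0.79 to -1.19 in ABX mice and from -2.10 to -2.63 in GF mice at day 7 against sham. With 3 libraries a group and a biological coefficient of variation of 1.54, the spread between replicates limits the precision.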
